A study of Mus musculus with 77 samples.

Results

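The Cdk inhibitor genes of the mouse were followed in pancreatic ductal organoids that were made to express Neurogenin3 (Ngn3), a basic helix-loop-helix transcription factor of the pancreatic endocrine lineage. The genes were taken by name as the members of their families, with no cut on a measured value, although they and the gene lists used below were picked when results of these data were already known: Cdkn1a (p21), Cdkn1b (p27) and Cdkn1c (p57) of the Cip/Kip family, and Cdkn2a (p16), Cdkn2b (p15), Cdkn2c (p18) and Cdkn2d (p19) of the INK4 family. All 7 were among the 46078 genes counted, and all 7 passed the filter on detection at both time points. The organoids came from the ducts of adult C57BL/6 mice and carried lentiviral vectors of a tetracycline-inducible system, which encoded GFP only, GFP with wild-type Ngn3 (WT Ngn3) or GFP with a phosphomutant in which serine-proline sites were changed to alanine-proline (6S-A Ngn3). At 2 days of induction, GFP only, WT Ngn3 and 6S-A Ngn3 cells were sorted for GFP. At 8 days, WT Ngn3 and 6S-A Ngn3 cells were compared with cells that lacked the color, taken from organoids of either form of Ngn3 (no-color controls), so the control differs in kind between the time points. The labels give this control, while a legend of the study names GFP only for both times. The labels were followed, and every 8-day difference below is against no-color cells. Each library was a pool of 50 sorted cells. Each of the 7 groups had 3 biological replicates, with technical repeats summed where there was more than 1. Each 2-day group had 18 pools, and each 8-day group kept 4 to 6. At 8 days, replicate 3 of every group was a single pool. So was replicate 2 of WT Ngn3, whose other pool (849278 gene reads) was left out. Nothing in the labels says whether the replicates came from separate animals, so p-values measure the spread between these samples. The organoids were at passage 2, apart from replicate 3 of every 8-day group, at passage 5. The overexpression comes from a vector, and GFP-positive cells were selected, so the levels of Ngn3 are those of the vector and the sort.

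Cdk inhibitors bind cyclin-dependent kinases (Cdks) and slow or stop the cell cycle. Members of the Cip/Kip family act on several cyclin-Cdk complexes, mainly those of Cdk2, while members of the INK4 family bind Cdk4 and Cdk6 and keep them from D-type cyclins. Both ways the retinoblastoma protein stays able to hold back E2F factors and the genes of S phase. In the developing pancreas, cells that express Ngn3 leave the cell cycle as they become endocrine, and the study asked how Cdk-dependent phosphorylation bears on what Ngn3 does. The counts below are on the transcripts of the inhibitors, not on their proteins, and in pools of cells a lower count can mean fewer cells with the transcript or fewer transcripts per cell, which cannot be told apart.

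Ngn3 and its relatives bind E-boxes, short sites of the form CANNTG. The promoter windows of the members, from 250 bases before to 50 bases after a start site (RefSeq, GRCm38.p6), are shown for the genes whose counts moved at 2 days, to show whether such a site lies there. Windows were held for 6 of the 7 members, 9 windows in all, with more than 1 start site for Cdkn1a, Cdkn2a and Cdkn2c. In the following sequences, read 5′ to 3′ along the gene, capitals mark every match to CANNTG, which reads the same on both strands.
Cdkn1a, chr17:29090729-29091028, plus strand: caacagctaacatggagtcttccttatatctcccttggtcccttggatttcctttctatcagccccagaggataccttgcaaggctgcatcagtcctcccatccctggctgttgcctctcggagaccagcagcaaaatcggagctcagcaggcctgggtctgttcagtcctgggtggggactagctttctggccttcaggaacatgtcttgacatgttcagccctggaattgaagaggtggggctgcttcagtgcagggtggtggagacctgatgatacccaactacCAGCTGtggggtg
Cdkn1a, chr17:29093519-29093818, plus strand: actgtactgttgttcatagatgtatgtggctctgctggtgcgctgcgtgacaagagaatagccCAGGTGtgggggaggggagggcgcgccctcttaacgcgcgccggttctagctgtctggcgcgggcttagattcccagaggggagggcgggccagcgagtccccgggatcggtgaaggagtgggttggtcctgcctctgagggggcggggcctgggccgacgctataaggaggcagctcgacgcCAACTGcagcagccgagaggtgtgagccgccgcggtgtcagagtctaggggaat
Cdkn1b, chr6:134920151-134920450, plus strand: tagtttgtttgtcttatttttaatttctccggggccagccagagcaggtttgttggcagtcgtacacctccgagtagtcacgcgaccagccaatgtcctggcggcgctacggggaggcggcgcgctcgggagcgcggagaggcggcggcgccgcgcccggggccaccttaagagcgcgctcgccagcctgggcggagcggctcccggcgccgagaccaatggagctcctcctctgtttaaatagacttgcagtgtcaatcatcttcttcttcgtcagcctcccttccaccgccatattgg
Cdkn2c, chr4:109665323-109665622, minus strand: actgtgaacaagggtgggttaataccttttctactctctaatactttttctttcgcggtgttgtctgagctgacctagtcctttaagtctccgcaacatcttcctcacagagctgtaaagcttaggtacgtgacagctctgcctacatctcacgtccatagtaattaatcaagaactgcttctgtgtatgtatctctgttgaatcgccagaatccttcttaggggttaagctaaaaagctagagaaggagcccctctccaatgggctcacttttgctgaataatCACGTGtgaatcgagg
Cdkn2c, chr4:109666707-109667006, minus strand: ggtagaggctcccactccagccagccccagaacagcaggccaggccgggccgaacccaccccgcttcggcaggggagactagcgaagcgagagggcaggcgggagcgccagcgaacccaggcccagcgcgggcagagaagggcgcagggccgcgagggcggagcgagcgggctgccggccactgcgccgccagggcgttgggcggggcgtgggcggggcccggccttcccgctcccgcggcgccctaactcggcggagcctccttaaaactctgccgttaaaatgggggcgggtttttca

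Of the 9 windows, 4 held a CANNTG match, with both windows of Cdkn1a, the window of Cdkn2b and 1 of the 2 windows of Cdkn2c among them. CANNTG was present in 72.3% of all 32851 promoter windows of this length. CAGATG, or CATCTG on the other strand, was present in 17.2% of all windows and in 0 of the 9. The first Cdkn1a window held CAGCTG, a form found in 16.3% of all windows. The first Cdkn2c window shown held CACGTG, found in 7.15% of all windows. Both forms read the same on either strand and are counted among the CANNTG matches. These are matches of letters only, and no binding was measured here.

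The depth of the pools ranged from 1501002 to 5632412 reads on genes at 2 days and from 2397470 to 9202142 at 8 days. After summing, the replicates held 17757303 to 26627347 reads at 2 days and 2397470 to 17919627 at 8 days. The smallest was replicate 3 of the no-color control of WT organoids, a single pool. Levels are given as CPM, reads per 1000000 reads on genes, after TMM scaling of the 21 replicates. Technical repeats 2 and 3 of replicates 2 and 3 in each 2-day group were nearly alike. The chi-square statistic divided by the number of genes was 1.59 to 2.35 in these 6 pairs of pools, and no lower than 5.21 in the remaining 142 (highest 55.7). Neurog3, the induced gene, was at 205, 89.5 and 105 CPM in WT Ngn3 cells of 2 days (replicates 1 to 3) and at 198, 117 and 99.9 CPM in 6S-A Ngn3 cells, while every GFP-only replicate held at most 2 reads. At 8 days it was at 6.90, 46.4 and 14.3 CPM in WT Ngn3 cells and at 9.87, 12.8 and 15.5 CPM in 6S-A Ngn3 cells, and at most 0.992 CPM in the no-color controls. Fam241b overlaps Neurog3 on the other strand, and whether the counting used strand is not given in the sources used here.

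The ductal label held in all groups. Of 12 ductal markers, 10 or 11 reached a mean of 1 CPM in each group, and their summed level was 17209 to 19104 CPM in GFP-only replicates, 10644 to 11377 CPM in WT Ngn3 and 8854 to 9613 CPM in 6S-A Ngn3 at 2 days. Much of that sum was Spp1, which encodes osteopontin, at means of 8752, 4562 and 3817 CPM in these groups, whereas Krt7, a ductal keratin, was at 1311, 1279 and 1214 CPM and Sox9, a ductal transcription factor, at 368, 379 and 352 CPM. Against GFP only, 7 of the 12 ductal markers were lower with each form of Ngn3, 5 were not called and none was higher, beside 5.23% of all genes lower in the WT comparison and 8.62% in that of 6S-A Ngn3. At 8 days, 2 of 11 tested passed as lower in the WT comparison and 3 of 11 in that of 6S-A Ngn3, beside 0.173% and 0.340% of all genes. The sum of 17 endocrine markers was 1.20 to 3.06 CPM, 259 to 1133 CPM and 831 to 1748 CPM in the same groups. Markers of other cell types were low in every replicate, with sums of at most 20.8 CPM for 13 acinar genes, 5.21 CPM for 9 mesenchymal genes, 22.8 CPM for 8 immune genes and 10.6 CPM for 6 endothelial genes. At 8 days the ductal sum was 17260 to 41562 CPM and 33162 to 38136 CPM in the no-color cells of WT and 6S-A organoids, and 14171 to 16737 CPM and 10249 to 25652 CPM in WT and 6S-A Ngn3 cells, whose endocrine sums were 35.6 to 4947 CPM and 203 to 5470 CPM. At 2 days the endothelial sum was 1.20 to 1.52 CPM with GFP only, 2.31 to 6.13 CPM with WT and 3.16 to 10.6 CPM with 6S-A Ngn3. The immune sum was 10.2 to 12.6, 5.28 to 9.05 and 7.46 to 8.12 CPM in these groups. The lower ductal and higher endocrine sums, and these smaller shifts, move with the differences described below. Their part in the members' differences was not tested.

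Per kilobase of exon, 2 inhibitors made up most of the transcripts of the 7. Cdkn1a (ENSMUSG00000023067), which lies at chr17:29090976-29100727 on the plus strand of GRCm38 and inhibits Cdk2 complexes, had the highest level per kilobase of the 7, with group means from 145 to 274 CPM per kb. Cdkn2b (ENSMUSG00000073802), at chr4:89306299-89311039 on the minus strand, an INK4 inhibitor of Cdk4 and Cdk6, followed with 135 to 185 CPM per kb. Cdkn1a made up 46.3 to 61.3% of the summed level of the 7 genes in a group, and Cdkn2b 33.0 to 45.7%. The upper end for Cdkn1a and the lower end for Cdkn2b came from the no-color control of WT organoids and rest on its replicate 3, the single pool of lowest depth. Without that replicate, the control had 129 CPM per kb of Cdkn1a and 143 of Cdkn2b, or 44.1 and 48.8% of the sum, so that Cdkn2b was the higher of the pair there. The highest group mean of Cdkn1a per kilobase was then 267.5 CPM per kb, in 6S-A Ngn3 cells of 2 days. The other 5 were far lower, with means over the 7 groups of 10.8 CPM per kb for Cdkn2a, 5.09 for Cdkn2d, 4.77 for Cdkn1b, 1.25 for Cdkn1c and 0.971 for Cdkn2c. Cdkn2a encodes both p16 and, from another reading frame, p19ARF, and counts per gene do not separate them.

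**Figure D1:**
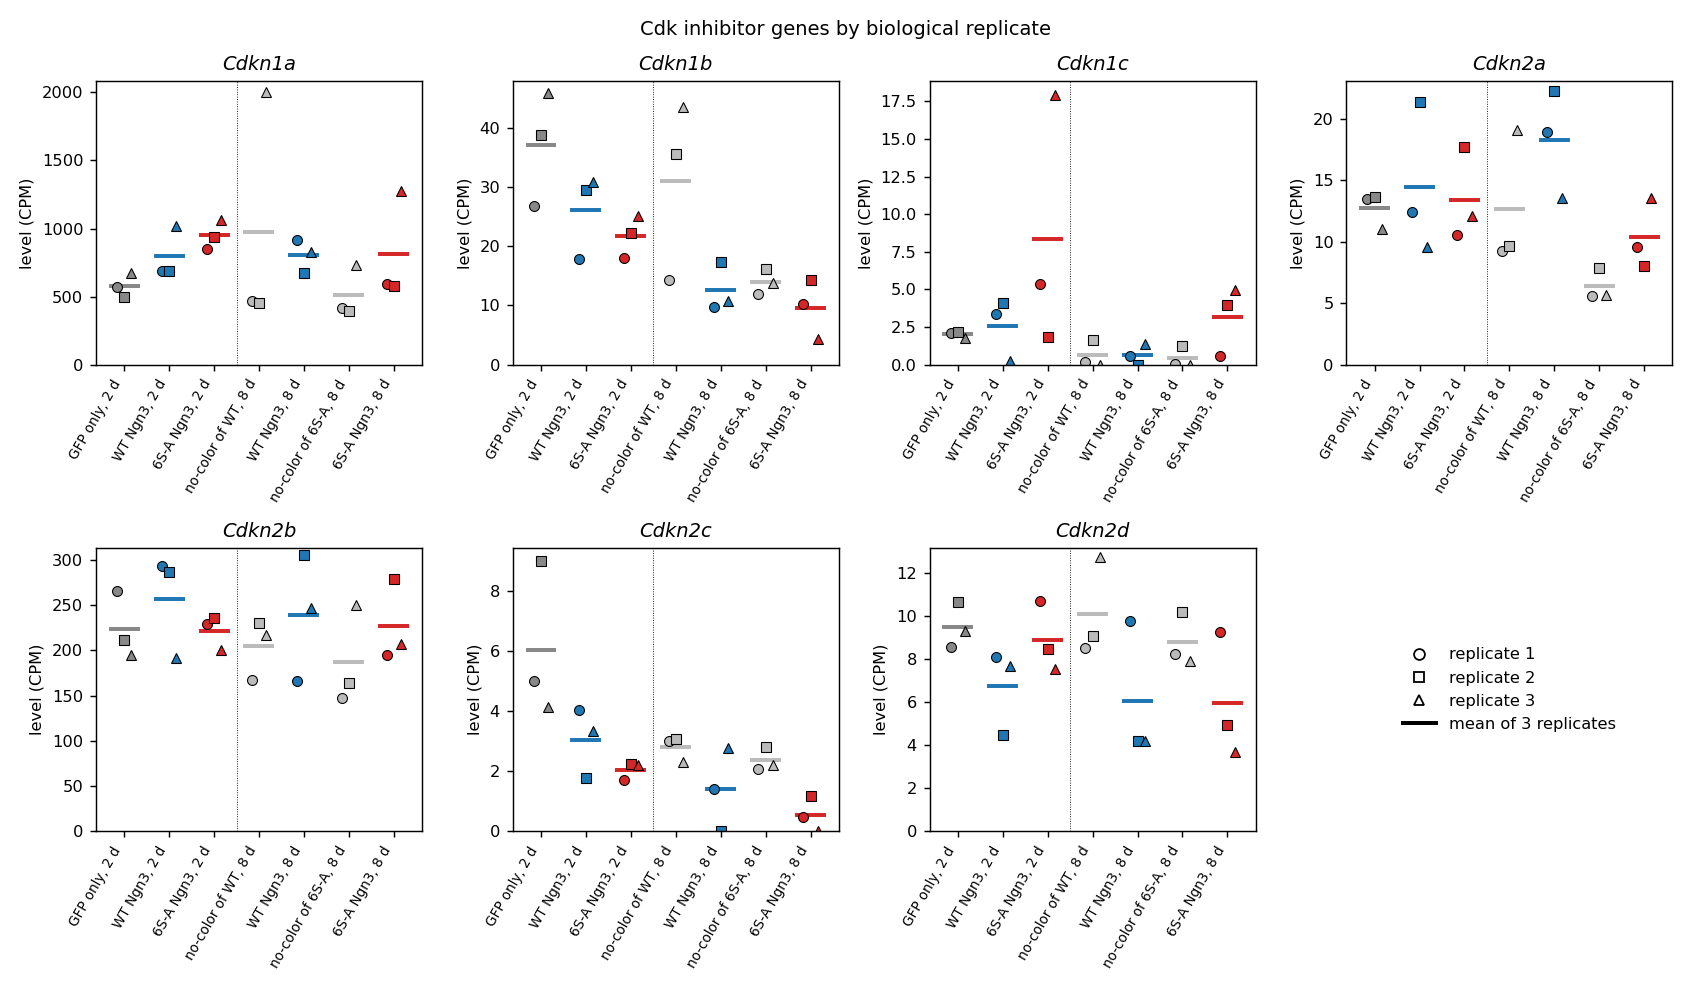
Level of each of the 7 Cdk inhibitor genes (vertical axis, CPM, from 0) in the 7 groups, with 1 point per biological replicate (circle, square and triangle for replicates 1, 2 and 3) and a bar at the mean of the 3. The dotted line parts 2 days from 8 days. At 2 days, all 3 points of 6S-A Ngn3 lie above those of GFP only for Cdkn1a and below them for Cdkn1b and Cdkn2c.

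Against GFP only at 2 days, in the fit without a block on the replicate number, 6S-A Ngn3 cells had 1 inhibitor higher and 2 lower, and WT Ngn3 cells had none past the threshold. With that block, Cdkn1a passed as higher and Cdkn1b as lower with WT Ngn3 as well. With 6S-A Ngn3, Cdkn1a rose 1.63-fold, Cdkn1b fell to 0.583 and Cdkn2c to 0.338 of the GFP-only level (edgeR's quasi-likelihood test, Benjamini-Hochberg adjustment over 23844 genes, threshold 0.05). Of all genes tested, 18.1% were called in that comparison (9.43% higher, 8.62% lower) and 11.8% in that of WT Ngn3 with GFP only (6.56% higher, 5.23% lower). The same GFP-only replicates serve in both comparisons.

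Cdkn1a, the Cip/Kip inhibitor that p53 and many differentiation factors induce, was at 572, 500 and 672 CPM in the GFP-only replicates 1, 2 and 3. WT Ngn3 replicates were at 689, 688 and 1019 CPM, and 6S-A Ngn3 replicates at 851, 938 and 1062 CPM. Every replicate of either form of Ngn3 lay above every GFP-only replicate, while those of WT and 6S-A Ngn3 overlapped. For 6S-A Ngn3, the log2 fold change was 0.70 (SE 0.17, adjusted p = 0.00862, edgeR). For WT Ngn3 it was 0.46 (SE 0.17), which did not pass (adjusted p = 0.0983). Blocking on the replicate number gave WT Ngn3 a difference of 0.45 (SE 0.08), which passed (adjusted p = 0.00162). It also passed with no filter on low counts (adjusted p = 0.0185). In a joint fit of all 7 groups, where the spread of the 8-day replicates enters, none of the 3 calls with 6S-A Ngn3 was kept (adjusted p of Cdkn1a = 0.612). An uncharacterised transcript, AC167363.2, overlaps Cdkn1a on the other strand.

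Cdkn1b (ENSMUSG00000003031), at chr6:134920401-134925513 on the plus strand, encodes p27, which is held largely at the level of protein turnover. It was at 26.8, 38.7 and 45.8 CPM in GFP-only replicates, 17.8, 29.4 and 30.8 CPM in WT Ngn3 and 18.0, 22.2 and 25.1 CPM in 6S-A Ngn3. Replicate 1 was the lowest of its group in all 3 groups. The 6S-A Ngn3 replicates all lay below the GFP-only ones, with a log2 fold change of -0.78 (SE 0.24, adjusted p = 0.0351). For WT Ngn3, whose replicates overlapped those of GFP only, it was -0.51 (SE 0.23, adjusted p = 0.212), and with the replicate block -0.51 (SE 0.12, adjusted p = 0.00723). Leaving out GFP-only replicate 2 or 3, or 6S-A Ngn3 replicate 1 or 2, put the adjusted p for 6S-A Ngn3 at 0.101, 0.145, 0.130 and 0.0886, so that call rests on single replicates. It was also lost without the pool of 6S-A Ngn3 replicate 3 that was highest for Cdkn1c (adjusted p = 0.0611) and with the first technical repeat alone (adjusted p = 0.527).

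Cdkn2c (ENSMUSG00000028551), at chr4:109660876-109667189 on the minus strand, encodes the INK4 inhibitor p18. It was at 5.01, 8.99 and 4.15 CPM in GFP-only replicates, 4.03, 1.78 and 3.34 CPM in WT Ngn3 and 1.69, 2.24 and 2.22 CPM in 6S-A Ngn3. Neither form of Ngn3 had a replicate that reached the lowest GFP-only value. The log2 fold change was -1.56 for 6S-A Ngn3 (SE 0.39, adjusted p = 0.0108) and -0.97 for WT Ngn3 (SE 0.38, adjusted p = 0.126). Without GFP-only replicate 2, the highest, the value for 6S-A Ngn3 was -1.17 and did not pass (adjusted p = 0.0753), as with the first technical repeat alone (adjusted p = 0.429).

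The other 4 members did not pass in either comparison. Cdkn2d (ENSMUSG00000096472), which lies at chr9:21288410-21291407 on the minus strand and encodes the INK4 inhibitor p19, was at 8.57 to 10.6 CPM with GFP only, 4.50 to 8.10 CPM with WT Ngn3 and 7.54 to 10.7 CPM with 6S-A Ngn3. Its WT Ngn3 replicates lay below every GFP-only one (log2 fold change -0.48, SE 0.26, adjusted p = 0.299). Cdkn2b, the second most abundant inhibitor, stayed within 192 to 293 CPM over all 9 replicates of 2 days, and its differences from GFP only were 0.20 and -0.02 on the log2 scale (SE 0.16 each, WT form first). Cdkn2a (ENSMUSG00000044303), at chr4:89274471-89294653 on the minus strand, ranged from 9.54 to 21.4 CPM, with differences of 0.18 (SE 0.28) and 0.07 (SE 0.28).

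Cdkn1c (ENSMUSG00000037664), at chr7:143458339-143461050 on the minus strand, encodes p57 and lies in an imprinted cluster, and an antisense gene, Gm44732, overlaps it. It was low and uneven, at 1.80 to 2.14 CPM with GFP only, 3.40, 4.13 and 0.246 CPM in WT Ngn3 replicates 1, 2 and 3, and 5.36, 1.82 and 18.0 CPM in those of 6S-A Ngn3. The log2 fold change of 6S-A Ngn3 was 2.05 with an SE of 0.91 (adjusted p = 0.176). A single pool of 6S-A Ngn3 replicate 3 held 58.0% of that group's Cdkn1c reads, 323 reads at 56.6 CPM. Without it the difference was 0.98 (SE 0.68, adjusted p = 0.407).

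Groups that did not overlap with GFP only were found for 3 of the 7 members with each form of Ngn3 (Cdkn1a, Cdkn2c and Cdkn2d with WT Ngn3, and Cdkn1a, Cdkn1b and Cdkn2c with 6S-A Ngn3), against 26.2% of all genes in the WT comparison and 32.8% in that of 6S-A Ngn3. The median log2 fold change of the 7 was 0.18 for the WT form and -0.02 for the mutant, beside 0.01 and 0.02 over all genes tested.

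**Figure D2:**
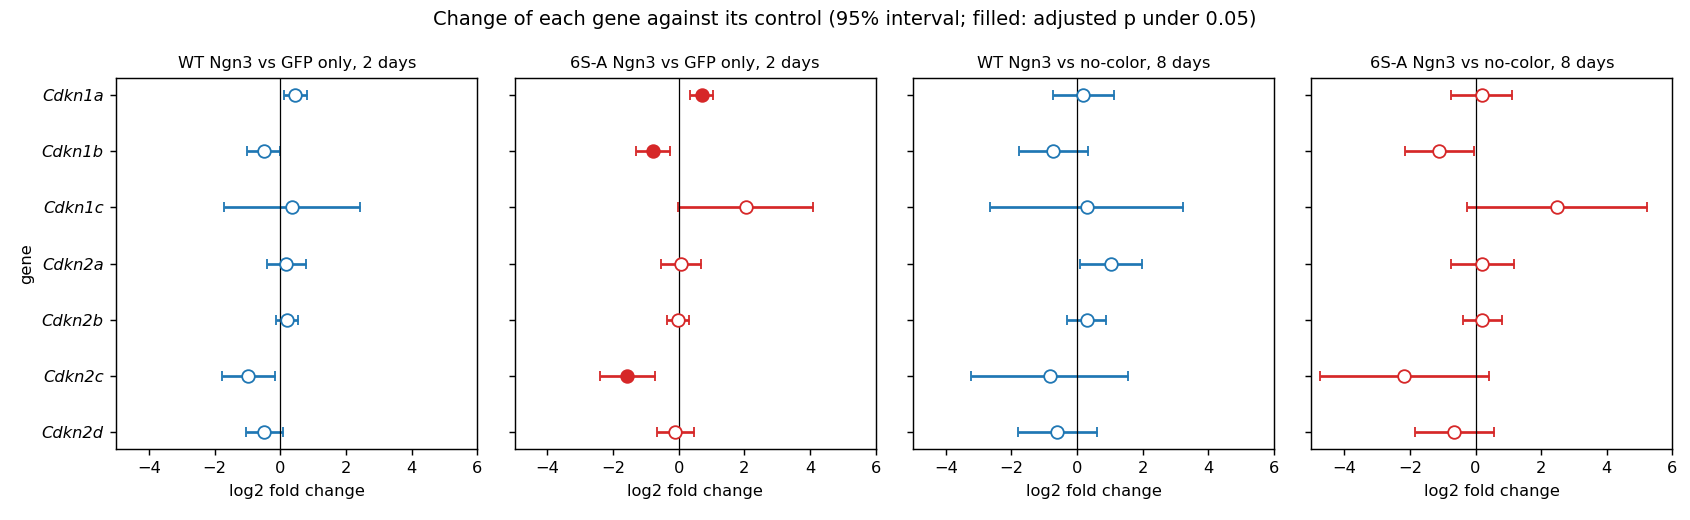
Log2 fold change (horizontal axis) of each Cdk inhibitor gene against its control in the 4 comparisons with a control, with its 95% interval as a bar. Filled circles passed an adjusted p of 0.05, which held for Cdkn1a, Cdkn1b and Cdkn2c with 6S-A Ngn3 at 2 days, and the intervals at 8 days are wider.

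A direct comparison of 6S-A with WT Ngn3 asked whether the phosphomutant differs from the wild type. At 2 days, none of the 7 members passed, beside 0.0126% of all genes (3 genes, 0.00839% higher and 0.00419% lower, and 1380 at an unadjusted p under 0.05). That number of genes was 147 with the replicate block, 101 by DESeq2, 100 with no filter on low counts and 0 on leaving out any of several single replicates, and no member was called in any of these. The log2 difference of Cdkn1a was 0.24 (95% interval -0.12 to 0.60), that of Cdkn1b -0.27 (-0.78 to 0.24) and that of Cdkn2c -0.59 (-1.42 to 0.24). For Cdkn2b it was -0.23 (-0.57 to 0.12), for Cdkn2d 0.39 (-0.17 to 0.94) and for Cdkn2a -0.12 (-0.71 to 0.48). Blocking on the replicate number, the log2 difference was 0.26 (SE 0.08, adjusted p = 0.258) for Cdkn1a, -0.24 (SE 0.12, adjusted p = 0.584) for Cdkn1b and -0.61 (SE 0.39, adjusted p = 0.737) for Cdkn2c. Between same-numbered replicates 1, 2 and 3, Cdkn1a was higher with 6S-A Ngn3 by 0.30, 0.45 and 0.06 on the log2 scale, 3 of 3, and it did not pass. Cdkn1c had the widest unblocked interval, 1.69 (-0.34 to 3.72). Without the block, the adjusted p of the 7 was between 0.953 and 1. The intervals do not show that the 2 forms act alike on these genes. Nor do the 3 calls made only with 6S-A Ngn3 in the fit without the block show that they differ.

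Single pools gave the same order for Cdkn1a with some overlap. Over 18 pools per group, Cdkn1a ranged from 418 to 872 CPM with GFP only (median 608), 626 to 1246 CPM with WT Ngn3 (median 724) and 682 to 1254 CPM with 6S-A Ngn3 (median 954). The medians of Cdkn1b were 37.1, 26.3 and 22.0 CPM, and every pool held reads of it. Cdkn2c had medians of 6.02, 3.53 and 1.38 CPM, and no read of it was counted in 1 pool of GFP only, 1 of WT Ngn3 and 4 of 6S-A Ngn3. On the log2(CPM + 1) scale, the SD between technical repeats of a replicate was 0.22 for Cdkn1a, 0.34 for Cdkn1b and 0.73 for Cdkn2c in GFP-only cells. Pools of 1 replicate share their culture and were not treated as replicates.

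**Figure D3:**
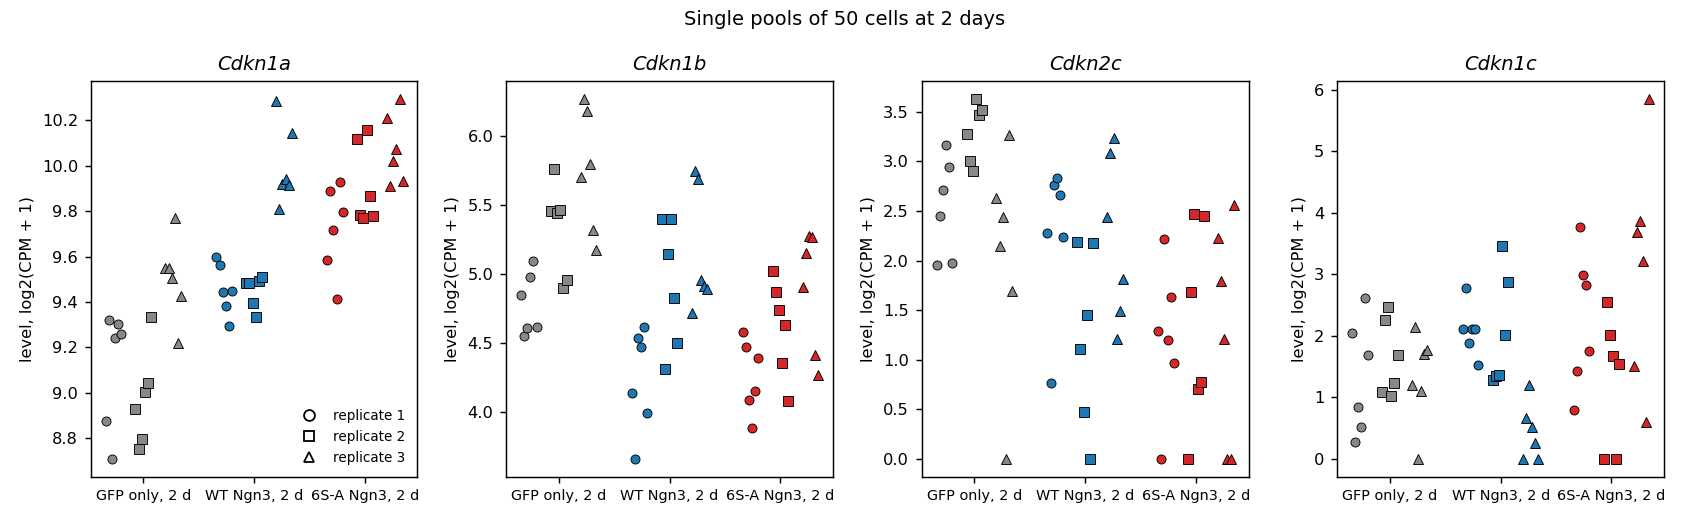
Level of 4 Cdk inhibitor genes in each pool of 50 cells at 2 days (vertical axis, log2(CPM + 1)), with 18 pools per group set apart by biological replicate (circle, square and triangle for replicates 1, 2 and 3). Points at 0 are pools without a read, of which Cdkn2c had 4 in 6S-A Ngn3 cells, and the highest Cdkn1c point is the pool at 56.6 CPM.

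Of 12 cyclins and Cdks, the proteins that the inhibitors bind, 6 fell at 2 days with the WT form and 8 with 6S-A Ngn3, beside 5.23% and 8.62% of all genes. None of the 12 rose, beside 6.56% and 9.43% of all genes, and the median log2 fold changes were -0.62 and -0.98. Ccnb1 and Ccnb2, the B-type cyclins of mitosis, fell by 1.67 (SE 0.33, adjusted p = 0.00402) and by 1.24 (SE 0.20, adjusted p = 0.00105) on the log2 scale with WT Ngn3. With 6S-A Ngn3, Ccnb2 fell by 1.85 (SE 0.21), Ccna2, the A-type cyclin, by 1.83 (SE 0.41) and Cdk1, their kinase, had -1.62 (SE 0.25). Ccne1, Cdk6, Cdk2, Ccnd1, Ccnd2, Ccnd3 and Cdk4 were picked after their values were seen. Ccne1, the E-type partner of Cdk2, fell by 1.14 (SE 0.30) and 1.43 (SE 0.30) with WT and 6S-A Ngn3, and Cdk6, a kinase the INK4 proteins bind, by 0.35 (SE 0.10) and 0.61 (SE 0.10). Cdk2 fell by 0.68 (SE 0.17, adjusted p = 0.0117) with 6S-A Ngn3. Ccnd1, a D-type cyclin, was at -0.10 and -0.09 (SE 0.20 each) and Cdk4 at 0.18 and 0.24 (SE 0.11 each), none past the threshold. The D-type cyclin Ccnd2 was at 1015 to 1305 CPM with GFP only, 852 to 1013 CPM with WT and 794 to 892 CPM with 6S-A Ngn3. For Ccnd3 these were 42.45 to 63.15, 31.2 to 43.8 and 32.1 to 47.8 CPM, so both forms overlapped GFP only.

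Genes of DNA synthesis and mitosis showed the same direction in more members. Of 18 proliferation genes, 12 were lower with the WT form and 16 with 6S-A Ngn3, none was higher, and the medians were -1.13 and -1.45, beside 5.23% and 8.62% of all genes called lower. The list shares Ccna2, Ccnb1 and Cdk1 with the list of cyclins and Cdks. Mki67, the proliferation antigen Ki-67, was at 54.0 to 82.4 CPM with GFP only, 21.1 to 32.6 CPM with WT Ngn3 and 15.5 to 22.1 CPM with 6S-A Ngn3 (log2 fold change of 6S-A Ngn3 -1.97, SE 0.22, adjusted p = 2.29e-05). Rrm2, a subunit of ribonucleotide reductase, was at 36.3 to 60.6, 10.7 to 22.2 and 7.45 to 12.3 CPM, and its groups with Ngn3 did not overlap with GFP only. Aurkb, a mitotic kinase, fell by 1.56 (SE 0.34) and 2.00 (SE 0.35). Of the 3 inhibitors called with 6S-A Ngn3, Cdkn1b and Cdkn2c had the sign of these genes and Cdkn1a the opposite one.

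Among the genes that the inhibitors act through, E2f8, a repressor of the E2F family that is itself made in S phase, fell by 1.92 (SE 0.42) with WT Ngn3 and by 2.44 (SE 0.43) with 6S-A Ngn3, and Rbl1, the retinoblastoma relative p107, had -1.02 (SE 0.24) and -1.44 (SE 0.24). Of the 13 genes of the Rb and E2F families, 3 fell with the WT form (5.23% of all genes) and 4 with 6S-A Ngn3 (8.62% of all genes), and with 6S-A Ngn3 1 rose (9.43% of all genes). The others that fell were E2f3 (by 0.64 and 0.56 with WT and 6S-A Ngn3, SE 0.17 each, its 6S-A replicates overlapping those of GFP only) and E2f5 (by 0.54, SE 0.15, with 6S-A Ngn3). Rb1, the retinoblastoma gene, was at 13.1 to 19.1 CPM with GFP only and at 22.3 to 25.6 CPM with 6S-A Ngn3, where it rose by a log2 fold change of 0.65 (SE 0.18, adjusted p = 0.0221). With WT Ngn3 Rb1 had 0.42 (SE 0.18, adjusted p = 0.171).

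Of 11 genes for the degradation of p27 and p21, 3 fell with the WT form and 4 with 6S-A Ngn3, where 5.23% and 8.62% of all genes were called lower. Skp2, the F-box protein that recognises p27, fell by 0.73 (SE 0.22) with WT and by 0.97 (SE 0.22) with 6S-A Ngn3, and Cks1b, its cofactor, by 0.67 (SE 0.15) with 6S-A Ngn3. Dtl, which directs p21 to its ligase, fell by 1.26 (SE 0.25) and 1.19 (SE 0.25), and Cdc20, an activator of the anaphase-promoting complex, by 1.32 (SE 0.20) and 1.34 (SE 0.20). Cul4a, the only gene of the list that rose with 6S-A Ngn3 and a cullin of the ligase that Dtl joins, had a log2 fold change of 0.36 (SE 0.11, adjusted p = 0.0411, with 9.43% of all genes called higher) and was named after its value was seen. No protein was measured.

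Of 18 genes of the p53 pathway, of which Cdkn1a is a known target not counted in the list, 1 rose and none fell with WT Ngn3, beside 6.56% of all genes higher and 5.23% lower. With 6S-A Ngn3, 1 rose and 3 fell, beside 9.43% higher and 8.62% lower. The medians were 0.12 and 0.06, and 0.01 and 0.02 over all genes. The one that rose was Eda2r, a receptor of the TNF receptor family, which was at 99.2 to 146 CPM with GFP only, 292 to 331 CPM with WT Ngn3 and 300 to 348 CPM with 6S-A Ngn3 (log2 fold change 1.31, SE 0.14, and 1.41, SE 0.14). Those that fell with 6S-A Ngn3 were Perp, a desmosome protein (by 0.73, SE 0.12), Plk2, a polo-like kinase (by 0.56, SE 0.15), and Pmaip1, the pro-apoptotic Noxa (by 0.54, SE 0.12). With WT Ngn3, Perp (301 to 365 CPM) and Pmaip1 (157 to 185 CPM) also lay below every GFP-only replicate (377 to 511 and 193 to 240 CPM). Plk2 overlapped GFP only there. None of these genes passed with WT Ngn3 or in the direct comparison of the forms. Mdm2, the ligase of p53, was at 0.18 and 0.12 (SE 0.12 each) and Trp53 itself at -0.07 and -0.15 (SE 0.12 each), none past the threshold, and both were named after their values were seen.

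Of 18 genes known to regulate transcription of the inhibitors, 1 rose with each form (6.56% and 9.43% of all genes) and, with 6S-A Ngn3, 2 fell (8.62% of all genes). Prox1, a homeobox factor, rose with both (log2 fold change 0.95, SE 0.25, and 1.37, SE 0.25). It went from 20.5 to 34.0 CPM with GFP only to 38.7 to 73.2 CPM with WT and 59.3 to 79.6 CPM with 6S-A Ngn3. With 6S-A Ngn3, Myc, which represses Cdkn1a and Cdkn2b, fell by 1.21 (SE 0.29, adjusted p = 0.0154), and Klf6, a zinc-finger factor that induces Cdkn1a, by 1.83 (SE 0.35, adjusted p = 0.00545). The other 15 did not pass with 6S-A Ngn3. With WT Ngn3, Myc (106 to 163 CPM) and Klf6 (203 to 415 CPM) also lay below every GFP-only replicate (166 to 250 and 506 to 799 CPM). Neither passed there, and neither passed in the direct comparison of the forms. In the imprinted cluster of Cdkn1c (11 genes, Cdkn1c included), 2 genes fell with the WT form and 4 with 6S-A Ngn3, beside 5.23% and 8.62% of all genes. Phlda2, a placental growth regulator, fell by 1.497 (SE 0.41) with WT and by 2.14 (SE 0.42) with 6S-A Ngn3, and Kcnq1, a potassium channel, by 0.72 (SE 0.19) and 0.95 (SE 0.19). Ascl2, a transcription factor of the placenta, and Slc22a18, a transporter, fell by 1.80 (SE 0.56) and 0.95 (SE 0.17) with 6S-A Ngn3. With WT Ngn3 they were at -1.58 (SE 0.55, adjusted p = 0.0876) and -0.51 (SE 0.17, adjusted p = 0.0744), and the direct comparison of the forms passed for neither (adjusted p = 1 and 0.801).

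**Figure D4:**
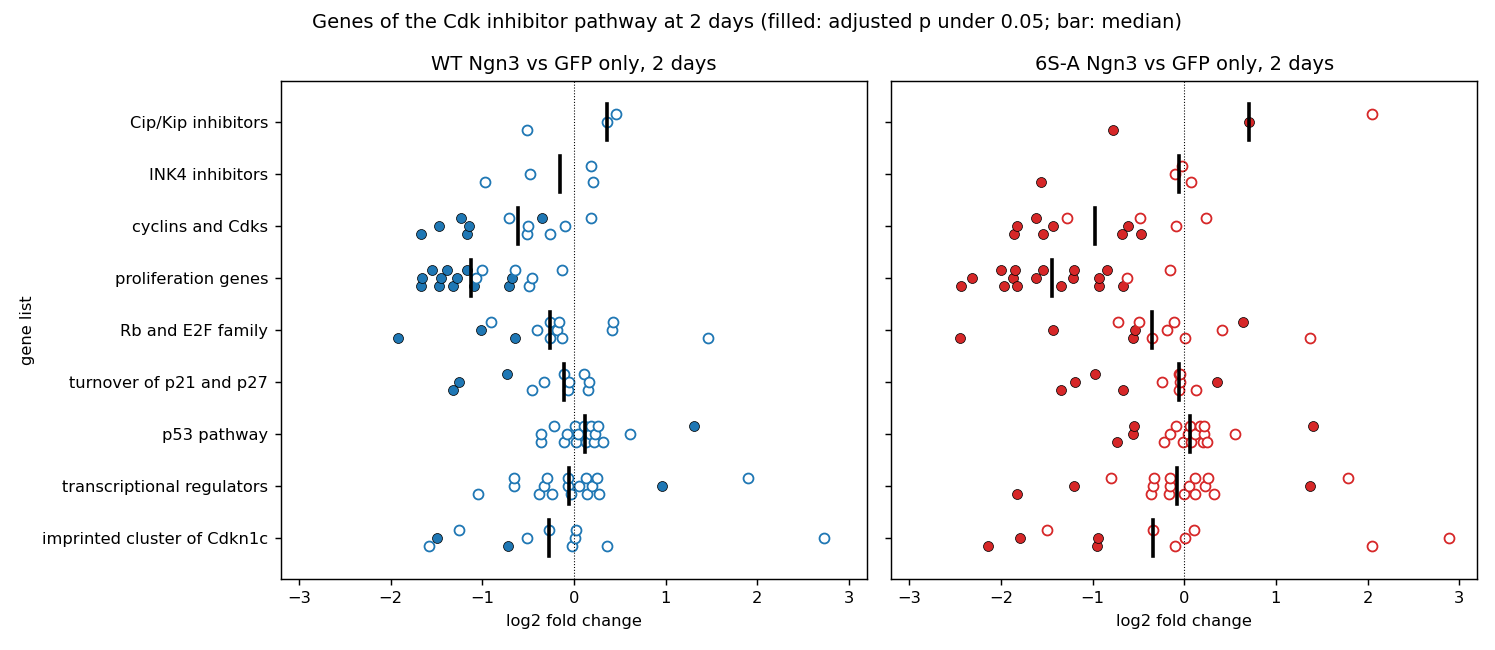
Log2 fold change against GFP only at 2 days (horizontal axis) of each tested gene in 9 lists around the Cdk inhibitors, for WT Ngn3 (left) and 6S-A Ngn3 (right). Filled points passed an adjusted p of 0.05 and the bar is the list's median, which lies at -1.13 and -1.45 for the proliferation genes and near 0 for the p53 pathway and the transcriptional regulators.

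At 8 days, none of the 7 inhibitors passed against the no-color controls, where the WT comparison called 0.914% of 19696 genes (0.741% up, 0.173% down) and that of 6S-A called 1.71% (1.37% up, 0.34% down). Cdkn1a was at 914, 677 and 830 CPM with WT Ngn3 and at 595, 576 and 1275 CPM with 6S-A Ngn3. The no-color controls were at 465.9, 452 and 2003 CPM in WT organoids and at 419, 396 and 731 CPM in 6S-A organoids. Replicate 3, the one of passage 5, was the highest in each group but WT Ngn3, and the value of 2003 CPM came from the replicate with the fewest reads. The log2 fold change against the mean of both controls was 0.19 (SE 0.44) for the WT form and 0.18 (SE 0.44) for the mutant. Without that control replicate the values were 0.72 (SE 0.30, adjusted p = 0.390) and 0.71 (SE 0.30, adjusted p = 0.351). Against its own no-color control, WT Ngn3 had -0.26 (SE 0.51) and 6S-A Ngn3 0.64 (SE 0.51). All WT Ngn3 replicates lay above replicates 1 and 2 of that control (465.9 and 452 CPM), and only its replicate 3, the pool at 2003 CPM, was higher. The negative sign for WT Ngn3 thus rests on that pool, and the difference from the own control without it was not computed.

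Cdkn1b was at 9.78, 17.4 and 10.8 CPM with WT Ngn3, 10.2, 14.2 and 4.33 CPM with 6S-A Ngn3, 14.3, 35.5 and 43.4 CPM in the no-color cells of WT organoids and 11.9, 16.1 and 13.7 CPM in those of 6S-A organoids. Its log2 fold changes were -0.72 (SE 0.49, adjusted p = 0.660) and -1.11 (SE 0.50, adjusted p = 0.381). Cdkn2c was at 1.40, 0 and 2.79 CPM with WT Ngn3 and at 0.484, 1.18 and 0 CPM with 6S-A Ngn3, below all 6 no-color replicates (2.08 to 3.06 CPM) in the latter. That separation of 6S-A Ngn3 from both controls held for 5.78% of all genes, and the test gave -2.17 (SE 1.22, adjusted p = 0.519). Cdkn2c rests there on 18 reads in all with 6S-A Ngn3, 10 of them in 1 pool of replicate 2, and a count of 3 reads corresponds to 0.182 to 0.463 CPM in these replicates.

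Cdkn2a had the lowest unadjusted p of the WT Ngn3 comparison, with 18.9, 22.2 and 13.5 CPM against 5.63 to 19.1 CPM in the 6 no-color replicates (log2 fold change 1.04, SE 0.44, adjusted p = 0.412). With 6S-A Ngn3 it was at 9.57, 8.00 and 13.6 CPM (0.21, SE 0.45). Cdkn2d was at 4.18 to 9.78 CPM with WT and 3.71 to 9.26 CPM with 6S-A Ngn3, against 7.90 to 12.7 CPM in the controls (-0.60, SE 0.57, and -0.64, SE 0.57). Cdkn2b ranged from 148 to 306 CPM over all 12 replicates of 8 days. Cdkn1c held at most 4.94 CPM, with 3 of the 12 replicates at 0 reads, and the difference of 6S-A Ngn3 was 2.48 (SE 1.30, adjusted p = 0.478). None of the proliferation genes, cyclins and Cdks passed at 8 days, although the medians of the 18 proliferation genes were -1.07 with WT and -1.35 with 6S-A Ngn3.

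No member passed the test between the 2 no-color groups (0 genes called of 19696, 1649 at an unadjusted p under 0.05 and 38 by DESeq2). No-color cells of 6S-A organoids against those of WT organoids had -1.14 (SE 0.55) for Cdkn1b, -0.95 (SE 0.53) for Cdkn2a and -0.91 (SE 0.51) for Cdkn1a on the log2 scale. Cdkn2a did not overlap between them, at 5.63 to 7.84 CPM in no-color cells of 6S-A organoids and 9.23 to 19.1 CPM in those of WT organoids, 1 of the 7 members beside 12.3% of all genes. The 6S-A Ngn3 and WT Ngn3 cells of 8 days differed by -0.01 (95% interval -1.08 to 1.06) for Cdkn1a, -0.39 (-1.56 to 0.78) for Cdkn1b and -0.83 (-1.94 to 0.28) for Cdkn2a, with 0 genes called in all (415 at an unadjusted p under 0.05 and 0 by DESeq2). In a joint fit of 19589 genes, no member passed for a change of its effect between 2 and 8 days, with adjusted p from 0.989 to 1 over the WT Ngn3 effect, the 6S-A Ngn3 effect and their difference (0, 2 and 0 genes called by edgeR, or 0, 0.0102% (0.0051% higher and 0.0051% lower) and 0 of those tested, 1024, 1104 and 445 at an unadjusted p under 0.05, and 59, 61 and 4 by DESeq2). For Cdkn1a with 6S-A Ngn3 the change was -0.50 (95% interval -1.70 to 0.69), so a loss of the whole 2-day effect lies within the interval.

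Over the 7 groups, the order of the members' means rarely parted neighbours. For Cdkn1a, the order from the highest was no-color of WT, 6S-A Ngn3 of 2 days, 6S-A Ngn3 of 8 days, WT Ngn3 of 8 days, WT Ngn3 of 2 days, GFP only and no-color of 6S-A, and the replicates of 5 of the 6 neighbouring pairs overlapped, all but WT Ngn3 of 2 days and GFP only. The no-color cells of WT organoids came first only through replicate 3, and without it their mean of Cdkn1a was 459 CPM in place of 974 CPM, the lowest of the 7 groups. For Cdkn2c it ran from GFP only and WT Ngn3 of 2 days, the only pair apart, through both no-color groups and 6S-A Ngn3 of 2 days to WT and 6S-A Ngn3 of 8 days. The highest group mean was 1.37 times the lowest for Cdkn2b and 1.69 times for Cdkn2d, and all 6 neighbouring pairs overlapped for both. It was 3.87 times for Cdkn1b, 2.85 times for Cdkn2a and 1.89 times for Cdkn1a. Without replicate 3 of the no-color control of WT organoids, the ratio for Cdkn1a was 2.07. No ratio is given for Cdkn2c and Cdkn1c, the lowest genes, since their lowest group means rest on 18 and 15 reads, of which single pools held 55.6 and 66.7%. The highest mean of Cdkn1c, in 6S-A Ngn3 cells of 2 days, was 8.38 CPM, and 4.02 CPM without the single pool named above, still the highest.

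Genes with the most similar pattern were looked for by Pearson's r of log2(CPM + 1) over the 21 replicates, among 11376 genes with a mean of at least 5 CPM, as a description with no test, since replicates of a group share its treatment. For Cdkn2c these were Racgap1 (r = 0.855), Kif11 (0.843) and Anln (0.826), which all work in mitosis or cytokinesis. For Cdkn1a they were Erich1 (0.857), H2-T24 (0.855) and Serf2 (0.837), and for Cdkn1b Zfp217 (0.859), Smim22 (0.853) and Zbtb45 (0.845). Cdkn2b was nearest to Snx9 (0.793), Adam10 and Nmt1, Cdkn2d to Rfxank (0.789), Fchsd1 and Phldb2, Cdkn2a to Pmepa1 (0.766), Zfp462 and Mfhas1, and Cdkn1c to Pard6g (0.727), Fbxw11 and Zfp125. Among the inhibitors themselves, the highest r was that of Cdkn1b and Cdkn2c (0.641) and the lowest that of Cdkn2b and Cdkn2d (-0.465), while Cdkn1a and Cdkn1b had 0.02.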

How the data were processed

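RNA from pools of 50 sorted cells was amplified by Smart-seq2 and sequenced. The authors aligned reads with GSNAP to mm10 and counted them per Ensembl gene with HTSeq (0.5.3p3), and the deposited values are raw read counts for 46078 genes and 92 spike-ins. Reads without a feature (14.4%), ambiguous (8.06%) and not aligned (22.5%) were left out of library sizes, as were spike-ins. Here 76 of 77 libraries were kept (at least 1000000 gene reads, 10000 detected genes and at most 30% spike-ins), technical repeats were summed per biological replicate, and genes seen in at least 5 libraries were tested with edgeR 4.0.16 (quasi-likelihood, TMM, R 4.3.3), per time point, with Benjamini-Hochberg adjustment over all genes tested and a threshold of 0.05. At 8 days the control was the mean of both no-color groups, and a joint fit gave the changes between times. Levels per kilobase used exon unions of GENCODE M21, and promoter windows came from RefSeq. The scripts were tested on simulated counts.

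The 7 genes and all gene lists were chosen with earlier results of these data known. Besides the members and Neurog3, up to 4 genes per list were named, those with the highest absolute log2 fold change, provided they passed and had no overlap between groups, and the 3 genes most similar in pattern to each member. Ccne1, Cdk6, Cdk2, Ccnd1, Ccnd2, Ccnd3, Cdk4, Cul4a, Mdm2, Trp53, Spp1, Krt7 and Sox9 fall outside this rule and were named after their values were seen. The same holds for E2f3 with 6S-A Ngn3, and for Myc, Klf6, Perp, Plk2 and Pmaip1 with WT Ngn3.

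Replicate numbers are shared between groups. Over genes with a mean of at least 100 reads, deviations from the group means of same-numbered samples correlated at 0.105 to 0.514 at 2 days (9 pairs) and 0.117 to 0.663 at 8 days (18 pairs), and over all genes tested the lowest values were 0.0436 and 0.0690. The numbers were therefore read as pairing the samples, by the data and not by a label, and values with the number as a block are given where they change a call. Alternatives were other size factors (DESeq2 1.42.0, scran 1.30.0), DESeq2's own test, other filters, the first technical repeat, other controls, the joint fit and leaving out each replicate.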

Additional observations from a re-analysis of the deposited data

Results flagged for a closer look

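Dixon's test was run for each member within each replicate of 4 to 10 pools, which only the 2-day replicates had. Of these 63 sets of values, 3 had a value far from the others, where the nominal rate of the test gives about 3.15. That rate is for normal values and was not checked for low counts in CPM. A pool of 6S-A Ngn3 replicate 3 at 2 days had 56.6 CPM of Cdkn1c (323 reads), against 0.511 to 13.6 CPM in the other pools of that replicate. A pool of WT Ngn3 replicate 1 at 2 days had 5.82 CPM of Cdkn1c (25 reads), against 1.86 to 3.34 CPM in the others. A pool of GFP-only replicate 1 had 14.0 CPM of Cdkn2d (66 reads), against 5.93 to 8.81 CPM.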

How the results depend on the processing

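Over 19 alternatives that change a value of this comparison (lifting the limits on libraries changes none), the 6S-A Ngn3 difference from GFP only at 2 days kept its sign for Cdkn1a, Cdkn1b and Cdkn2c, and passed the threshold in 18, 12 and 16 of them. They include leaving out WT Ngn3 replicates, which share the fit only. On leaving out a GFP-only or 6S-A Ngn3 replicate, Cdkn1b passed only without GFP-only replicate 1 or 6S-A Ngn3 replicate 3. The number of inhibitors called in that comparison, 3, was 1 with the first technical repeat only, 0 in the joint fit and 1 to 3 on leaving out each replicate, with 1 without GFP-only replicate 2. For WT Ngn3 the number, 0, was 1 with no filter on low counts and 2 with the replicate block, and the block changed no other call of a member. No inhibitor was called at 8 days, between 6S-A and WT Ngn3, between the no-color groups or for a change between times under any alternative run. The cause of these shifts was not tested. Leaving out the 6S-A Ngn3 pool highest for Cdkn1c, and keeping 1 of each pair of near-identical pools, were chosen after seeing the data, as were the own no-color control with the block and the levels without replicate 3 of the no-color control of WT organoids.

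Over all genes, the 2810 calls for WT Ngn3 at 2 days were 4291 with the block, 1216 with the first technical repeat and 437 in the joint fit, and the 4305 for 6S-A Ngn3 were 1677 and 878 in the latter pair. The 3 calls between 6S-A and WT Ngn3 at 2 days were 101 with DESeq2, 100 with no filter, 63 with the first technical repeat and 147 with the block. At 8 days, the 180 and 337 calls for WT and 6S-A Ngn3 were 551 and 822 with DESeq2, 724 and 1044 with no filter, 472 and 704 with the block, 49 and 115 against the own no-color control, 797 and 1281 in the joint fit, and 63 to 226 and 191 to 345 on leaving out each replicate. With the first technical repeat WT Ngn3 had 111, and without replicate 3 of every group 6S-A Ngn3 had 212. With no filter, the no-color groups differed in 352 genes, 6S-A and WT Ngn3 of 8 days in 8, and the changes of the WT effect, the 6S-A effect and their difference between times in 87, 133 and 26, and with the block the first 2 of these were 15 and 25. Cdkn2c and Cdkn1c rest on few reads, with as few as 0 in a replicate of 8 days, and the cause was not tested.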
